A study of Mus musculus with 11 samples.

Results

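The regions described here are open-chromatin peaks of the genes that encode the proteins of the cytosolic ribosome, measured by ATAC-seq in CD4 T cells of the mouse. A peak belonged to the set when the RefSeq transcription start nearest to its centre was that of a gene whose symbol begins with Rpl or Rps followed by a digit, with a (Rpsa) or with p and a digit (Rplp0, Rplp1, Rplp2), leaving out pseudogenes marked -ps and the S6 kinases (Rps6k). This rule found 187 of the 38509 peaks of the deposited table, assigned to 73 of the 90 RefSeq genes with such a symbol. Of these peaks 78 were promoter peaks, with their centre at most 1000 bases from the start (71 genes), and 109 were distal peaks (37 genes). No measured value entered the choice. The symbols Rps19bp1, Rps23rg1, Rpl37rt, Rps27rt and Rpl32l also fit the pattern. They are kept as matched by name, although Rps19bp1 encodes a binding partner of a ribosomal protein and not a part of the ribosome.

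The cells were sorted without treatment from pooled spleen and lymph nodes of wildtype C57BL/6 Foxp3-GFP mice with a polyclonal T cell repertoire, and the labels give no age. Naive cells were CD44low (2 libraries). Effector cells (Teff) were CD44high FOXP3- CD73low FR4low, anergic cells were CD44high FOXP3- CD73high FR4high NRP1+, and regulatory T cells (Treg) were FOXP3+ CD25+ (3 libraries each). Each group was transposed from 50000 captured cells. RNA-seq of the same subsets, which the series also describes, is not analysed here. The labels do not say whether replicates came from separate animals, so the tests measure the spread between these libraries, which may be technical.

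As background, a cytosolic ribosome joins a small 40S and a large 60S subunit, and each of its proteins is normally present in a single copy per particle, the stalk proteins excepted. Mammalian ribosomal protein genes are scattered over the genome and are transcribed in all dividing tissues from short open promoters, often with a start inside a pyrimidine tract (the TOP motif), through which mTOR signalling controls translation of the mRNAs. Resting naive T cells make few ribosomes, activated T cells many, and anergic T cells are known for low mTOR activity. ATAC-seq counts transposase cuts, so it reports how accessible a promoter or distal element is and not how much mRNA or protein is made. In such bulk samples an opening in fewer cells and a smaller opening in each cell cannot be told apart.

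The promoters at the centre of the results are shown first, because they include the most open promoter (Rps19), the promoters with the widest difference between groups (Rps23, Rpl36a, Rpl31), those that differed between anergic cells and Treg (Rpsa, Rpl22l1, Rps19) and 2 pairs of paralogs (Rpl22 and Rpl22l1, Rps27 and Rps27l). The sequences run from 70 bases before to 30 bases from the RefSeq start onwards (GRCm38.p6). Capitals mark matches on either strand to the core word CCGGAAG of the ETS family of transcription factors. They also mark the box GGGCGG known for binding the factor SP1, the TATA box with the letters TATAAA, and a word like that of the factor ZBTB33, which reads CGCGAGA. A TOP start, also in capitals, means C at the first base followed by 4 pyrimidines, extended to the end of the pyrimidine run. The Rps19 promoter (chr7:24884522-24884621, plus strand) holds the ZBTB33-like word 3 times, and the Rpl10a promoter (chr17:28328495-28328594, plus strand) holds it on both strands as an overlapping palindrome. The Rpl31 promoter (chr1:39367781-39367880, plus strand) and the Rps27l promoter (chr9:66946016-66946115, plus strand) have the ETS core shortly after the first base. A TOP start stands at Rpl35 (chr2:39005102-39005201, minus strand) and at Rps27 (chr3:90213619-90213718, minus strand) but not at its paralog Rps27l. The Rpl22l1 promoter (chr3:28805438-28805537, plus strand) has overlapping TATA matches before the first base, and that of its paralog Rpl22 (chr4:152325656-152325755, plus strand) has none of these words in the window. The remaining windows are Rpsa (chr9:120127696-120127795, plus strand), Rps23 (chr13:90923052-90923151, plus strand) and Rpl36a (chrX:134585584-134585683, plus strand).
Rps19: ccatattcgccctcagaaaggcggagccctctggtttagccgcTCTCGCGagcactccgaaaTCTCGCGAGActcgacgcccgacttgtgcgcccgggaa
Rpl10a: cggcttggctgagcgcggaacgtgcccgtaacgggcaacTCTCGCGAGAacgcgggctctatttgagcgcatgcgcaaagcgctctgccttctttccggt
Rpsa: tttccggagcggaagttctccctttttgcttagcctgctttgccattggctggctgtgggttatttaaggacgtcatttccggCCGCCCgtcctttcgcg
Rps23: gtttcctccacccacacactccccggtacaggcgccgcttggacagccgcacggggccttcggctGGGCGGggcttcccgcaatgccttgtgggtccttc
Rpl31: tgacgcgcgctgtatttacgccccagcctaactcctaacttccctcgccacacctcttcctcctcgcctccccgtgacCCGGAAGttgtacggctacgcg
Rpl36a: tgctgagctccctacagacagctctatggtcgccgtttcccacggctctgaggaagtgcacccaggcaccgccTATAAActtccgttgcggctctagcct
Rpl35: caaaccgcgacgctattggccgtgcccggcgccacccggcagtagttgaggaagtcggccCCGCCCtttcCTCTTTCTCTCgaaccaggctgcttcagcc
Rpl22: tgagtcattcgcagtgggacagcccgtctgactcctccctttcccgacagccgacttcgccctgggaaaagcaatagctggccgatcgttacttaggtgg
Rpl22l1: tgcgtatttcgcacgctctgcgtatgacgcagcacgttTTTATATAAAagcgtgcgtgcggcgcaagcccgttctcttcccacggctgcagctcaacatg
Rps27: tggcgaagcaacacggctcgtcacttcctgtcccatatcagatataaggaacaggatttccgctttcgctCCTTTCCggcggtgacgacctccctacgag
Rps27l: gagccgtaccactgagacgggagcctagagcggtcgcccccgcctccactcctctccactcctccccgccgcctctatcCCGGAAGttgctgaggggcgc

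Of the 70 genes with a peak over their own start, 54 had an entry in the RefSeq promoter table, which spans 250 bases before to 50 after the start. In these windows 35.2% of the ribosomal protein promoters held the ETS core, beside 9.12% over all 27025 genes in the table. Over the 8060 genes with an open start, meaning a start inside a promoter peak here, it was 19.6%. The ZBTB33-like word was in 22.2% of the ribosomal protein promoters (2.72% of all and 5.86% of those with an open start). A TOP start at the first annotated base was found for 11 of the 54 (20.4%, beside 2.49% and 2.30%), namely Rpl14, Rpl15, Rpl28, Rpl35, Rpl35a, Rpl38, Rplp2, Rps15a, Rps21, Rps27 and Rps6. A C with 4 pyrimidines after it within 10 bases of the start was present in 51.9%, beside 30.8% and 32.1%. The YY1 core AAGATGGC, which can share the letters AAG with the ETS core, was in 9.26% (2.88% and 4.79%), and the NRF1 core GCGCATG in 14.8% (4.04% and 7.66%). The SP1 box was in 61.1% (35.9% and 67.8%), CCAAT in 35.2% (37.9% and 39.6%), the E-box CACGTG in 9.26% (7.24% and 10.8%), the TATA box in 9.26% (14.2% and 6.38%) and the AP-1 word TGANTCA in 3.70% (7.93% and 4.48%). Median GC content was 57.8%, between the 52.7% of all promoters and the 61.3% of those with an open start. For the ribosomal protein genes the window read was the one nearest to the start in their peak. For both backgrounds it was the first window listed for each gene, which need not be its open start. The shares are thus not from windows chosen alike. These matches describe the sequences and were not tested as binding sites.

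Reads inside peaks numbered 14668425 (Treg replicate 2) to 68818591 (anergic replicate 2) per library. Every deposited value was a whole number of reads times 1 factor per library. Summed over each list, the sorting markers were highest in the groups sorted for them: peaks nearest to Foxp3, Il2ra, Lrrc32 and Ikzf2 summed to 19745 to 21739 in Treg and to at most 11634 in the others, and peaks of Nt5e, Izumo1r and Nrp1 to 8485 to 10481 in anergic cells and to at most 7829 in the others. The single Foxp3 peak read 1118 to 1597 in Treg, 96.1 to 184 in anergic cells and 7.74 to 63.3 in effector and naive cells. Single markers departed from this: mean summed signal of Nrp1 was 912 in Treg and 885 in anergic cells, and that of Ikzf2 was 7594 in anergic cells and 6435 in Treg. Peaks of Lef1 summed to 27557 to 29881 in naive cells and to 9187 to 15419 in the others, and those of Ccr7 to 12973 to 13272 and to 5972 to 11509.5. All 4 CD4 T cell genes (Cd4, Cd3e, Cd3d, Cd28) had peaks, with sums of 15837 to 21726. Markers of other cells were mostly without peaks: 4 of 5 B cell genes (sums of 63.4 to 113 in naive, effector and anergic cells and 145 to 171 in Treg), 4 of 5 myeloid and dendritic genes (141 to 212 in naive cells and 16.1 to 57.5 elsewhere), 2 of 4 CD8 and NK genes (Cd8a and Ncr1; 18358 to 24980, mostly from Klrb1c) and 1 of 3 erythroid genes (1767 to 2851). The single Cd8b1 peak read 1117 to 1150 in naive cells, 613 to 750.03 in Treg, 179 to 227 in effector and 115 to 285 in anergic cells. The part of such cells in the results below was not tested.

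Ribosomal protein promoters were open in all 4 subsets and varied little between them. Each of the 70 promoter peaks that hold their gene's start had group means within 1.5-fold of each other, from 1.04-fold between the highest and lowest group at Rps24 to 1.49-fold at Rps23, with a median of 1.19-fold. Over all 10312 such promoters in the table the median was 1.30-fold, and 74.6% stayed under 1.5-fold. The signal of the 70, the deposited value (reads times 1 factor per library), had a median of 2372 (61.7th percentile of all start-bearing promoters). It ranged from 570.0 at Rps4x, an X-linked small-subunit gene, to 6754 at Rps19. The peaks were also wide, with a median of 1154.5 bases beside 982. In the deposited values, naive cells had the highest mean at 42 of the 70 promoters (60%, beside 46.8% of all start-bearing promoters). Anergic cells had it at 14 (20%, beside 25.5%), Treg at 12 (17.1%, beside 10.5%) and effector cells at 2 (2.86%, beside 17.3%). The lowest mean was in Treg at 30 (42.9%, beside 48.8%) and in effector cells at 27 (38.6%, beside 14.1%). It was in anergic cells at 10 (14.3%, beside 16.2%) and in naive cells at 3 (4.29%, beside 20.9%). These ranks, and the library medians that follow, rest on the deposited scaling and are not given under another. The direction of calls that involve Treg depended on the scaling, as described below. The ranks therefore do not settle the order of the subsets, that of naive cells and Treg in particular.

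The ribosomal promoters were also followed library by library. Expressed as log2 signal relative to the mean of the 4 groups, the median over the 70 promoters was 0.10 and 0.11 in the naive libraries and -0.03, -0.07 and -0.08 in the effector libraries. It was 0.00, -0.09 and 0.12 in the anergic libraries and -0.04, -0.21 and 0.05 in the Treg libraries. The anergic libraries reached from below the effector to the naive level, and all Treg libraries lay below both naive libraries. The same median over all start-bearing promoters was 0.06 and 0.10 in naive, 0.01, 0.05 and -0.03 in effector, -0.02, 0.01 and 0.09 in anergic and -0.07, -0.19 and -0.04 in Treg libraries. Treg replicate 2, the shallowest library, was the lowest on both measures, and the counts of called promoter and distal peaks in the Treg comparisons are also given without it. The 78 promoter peaks took 0.496% to 0.555% of the reads in peaks, with both naive libraries above all effector libraries and within the range of the anergic and Treg libraries.

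**Figure D1:**
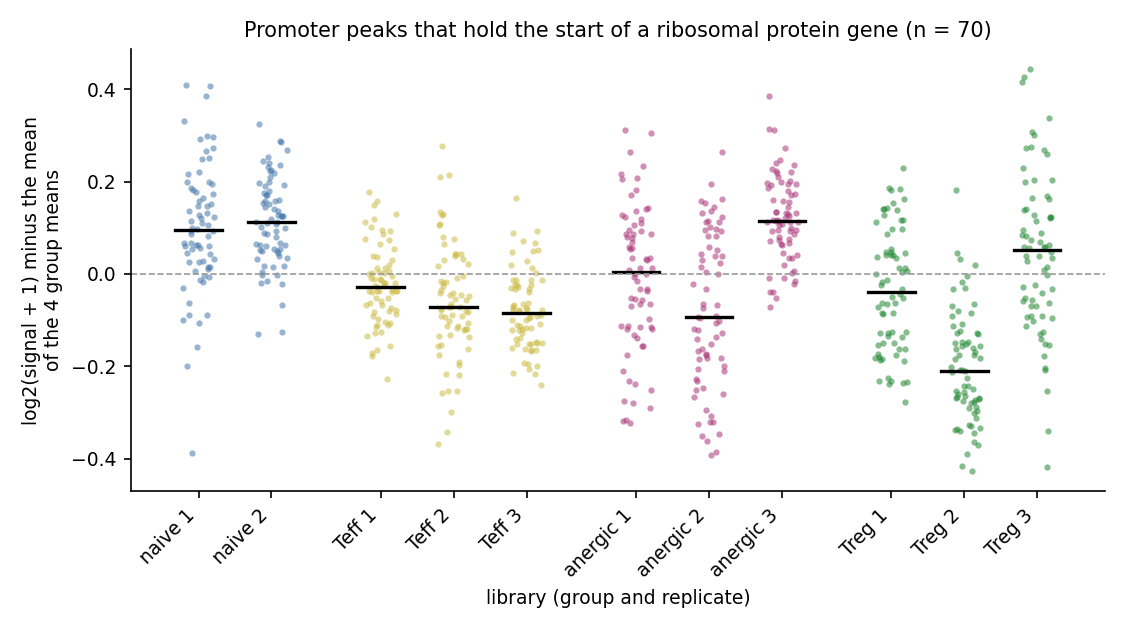
Each point is 1 of the 70 promoters of ribosomal protein genes that hold their start, in each of the 11 libraries; the y axis is log2(signal + 1) minus the mean of the 4 group means, and bars mark medians. Treg replicate 2 sits lowest at -0.21, and anergic replicate 3 (0.12) lies beside the naive libraries (0.10 and 0.11).

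Differences were tested with limma on log2(signal + 1) over 38493 peaks, with Benjamini-Hochberg adjustment over all of them and a threshold of 0.05. The F test of limma across the 4 groups, adjusted in the same way, asked for any difference among them and is separate from the pairwise tests, so its counts can be lower than those of a pair. By the F test 25 of the 78 promoter peaks (32.1%) differed among groups, beside 51.7% of all promoter peaks. Anergic cells exceeded effector cells at 5 and fell below them at none (6.41%, beside 16.0% of all promoter peaks), and exceeded Treg at 10 and fell below at none (12.8%, beside 27.5%). Against naive cells, anergic cells were higher at 2 and lower at 10 (15.4%, beside 31.9%), effector cells lower at 6 and higher at none (7.69%, beside 25.0%), and Treg higher at 1 and lower at 20 (26.9%, beside 39.3%). Treg exceeded effector cells at 2 and fell below them at 3 (6.41%, beside 23.4%). By direction, the shares of all promoter peaks called higher and lower were 7.92% and 8.11% for anergic over effector, 20.6% and 6.9% for anergic over Treg, and 15.1% and 16.8% for anergic over naive. They were 12.3% and 12.6% for effector over naive, 11.1% and 28.3% for Treg over naive and 5.95% and 17.5% for Treg over effector. At an unadjusted limma p under 0.05 the counts among the 78 over both directions were 9, 17, 15, 21, 26 and 10 in the same order. Among all 12760 promoter peaks tested they were 3021, 4825, 4833, 4333, 5975 and 4296. No ribosomal promoter peak that holds its start reached a 2-fold difference.

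Median log2 fold changes over the 78 peaks were 0.07 for anergic over effector cells (0.01 over all promoter peaks), 0.05 for anergic over Treg (0.11), -0.08 for anergic over naive (-0.05), 0.02 for Treg over effector (-0.10), -0.18 for effector over naive (-0.06) and -0.17 for Treg over naive (-0.14). The comparisons share their groups, so they are not independent. For the start-bearing promoters the 95% interval of the difference lay inside 1.5-fold at 70 of 70 for anergic over effector, 69 for anergic over Treg, 68 for Treg over effector, 66 for effector over naive, 60 for anergic over naive and 58 for Treg over naive. Over all 10306 start-bearing promoters tested it did at 8149, 7470, 7537, 7102, 6652 and 5667 in the same order. Of these, 5157 had a signal in the 5 to 95 percent range of the ribosomal ones. Among the 5157 the counts were 4794, 4250, 4325, 4262, 4010 and 3292. The small-subunit (25 genes) and large-subunit (45 genes) promoters had medians, in this order, for Treg over naive of -0.21 and -0.18, with 8 and 12 lower, and for anergic over Treg of 0.04 and 0.08, with 6 and 4 higher. No difference between the subunits was tested.

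**Figure D2:**
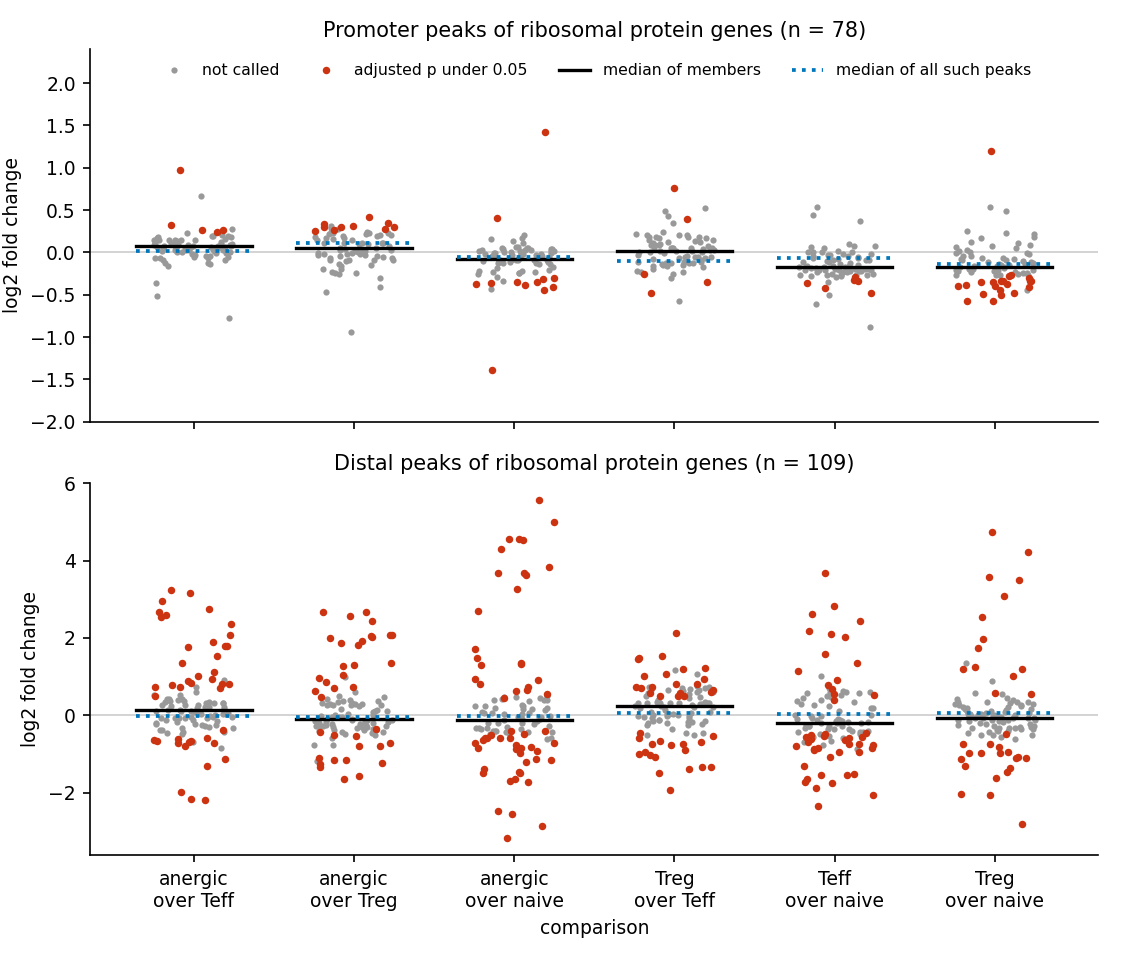
Log2 fold changes of the promoter and distal peaks of ribosomal protein genes in the 6 comparisons; red points have a limma adjusted p under 0.05, grey points do not, the black line is their median and the blue dotted line the median of all such peaks. Promoter points stay close to 0, with 20 red points below it for Treg over naive, whereas distal points spread widely to both sides.

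The direction counts that involve Treg depended on how libraries were scaled. With libraries scaled to equal total reads in peaks, the higher and lower calls were 3 and 6 for anergic over Treg (10 and 0 as deposited), 6 and 2 for Treg over effector (2 and 3) and 8 and 7 for Treg over naive (1 and 20). Scaled to an equal median over promoters they were 3 and 5, 8 and 2, and 3 and 9, and with edgeR's TMM factors 3 and 1, 3 and 2, and 1 and 16. The median log2 fold change over all peaks for Treg over naive was -0.04 as deposited, 0.12 with total reads and 0.10 with the promoter median, and for anergic over Treg 0.04, -0.09 and -0.07. Calls that held in direction and adjusted p under all 3 scalings and under edgeR's quasi-likelihood test on the recovered reads numbered 5 of 5 for anergic over effector, 3 of 10 for anergic over Treg, 11 of 12 for anergic over naive, 4 of 5 for Treg over effector, 3 of 6 for effector over naive and 8 of 21 for Treg over naive. The genes that follow are described with this in view.

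Single libraries also carried weight. For these runs and for the other scalings the shares over all promoter or all distal peaks are not given here. A general change in calls therefore cannot be told from one particular to the ribosomal protein genes. Without naive replicate 1 the calls numbered 8 for Treg over naive, 2 for anergic over naive and 0 for effector over naive, and without naive replicate 2 they numbered 10, 4 and 2. In both cases the remaining naive library is assumed to vary like the other groups. Without anergic replicate 1 there were 7 calls for anergic over naive and 3 for anergic over effector. Anergic over effector gave 2 calls without Teff replicate 2 and 1 without Teff replicate 3 or anergic replicate 3. Anergic over Treg gave 4 calls without anergic replicate 2, anergic replicate 3 or Treg replicate 2 and 5 without Treg replicate 1. Treg over effector gave 3 calls without Teff replicate 1 or 2 or without Treg replicate 1 or 2. Effector over naive gave 2 without Teff replicate 2 or 3 and 14 without Treg replicate 2, and differences among any groups 7, 12 and 16 without naive replicate 1, naive replicate 2 and Treg replicate 1. Without Treg replicate 2, Treg over naive had 1 higher and 14 lower calls, anergic over Treg 3 and 1, and Treg over effector 2 and 1.

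Among the small-subunit genes, Rps19 encodes a protein required for maturation of the small subunit's rRNA and is known from Diamond-Blackfan anaemia. Its promoter peak (chr7:24883681-24885065), the most open of the set, had a signal of 7215 and 7555 in naive cells, 6348, 6792 and 6164 in effector cells, 7164, 7254 and 7675 in anergic cells and 5992, 4989 and 6517 in Treg. All anergic and naive libraries lay above all Treg libraries. The log2 fold change was 0.34 ± 0.09 (SE, limma adjusted p = 0.00641) for anergic over Treg and -0.35 ± 0.10 (SE, limma adjusted p = 0.00879) for Treg over naive. Both calls held under the 3 other scalings and edgeR, and the second was lost without naive replicate 2, with an adjusted p of up to 0.0798 over the alternatives. Rpsa, which encodes a small-subunit protein also known as the laminin receptor, behaved similarly (chr9:120126973-120128418), with 4707 and 4792 in naive cells, 4146, 4196 and 3987 in effector cells, 5093, 4739.6 and 5022 in anergic cells and 4013, 3504 and 4318 in Treg. Every anergic library exceeded every effector and Treg library. The log2 fold change was 0.27 ± 0.09 (SE, limma adjusted p = 0.0244) over effector cells, lost without Teff replicate 1, Teff replicate 3, anergic replicate 1 or anergic replicate 3 (adjusted p up to 0.0806), and 0.33 ± 0.09 (SE, limma adjusted p = 0.0067) over Treg, which held in every alternative run.

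Rps23, whose protein sits at the decoding centre, had the widest spread between groups (chr13:90922709-90923653): 3512 and 3037 in naive cells, 2955, 2509.9 and 2277 in effector cells, 2117, 3178 and 2839 in anergic cells and 2256, 2109 and 2221 in Treg. The 3 Treg libraries lay below every naive and effector library, and the anergic libraries overlapped those of every other group. Treg over naive was -0.57 ± 0.14 (SE, limma adjusted p = 0.00242). The call held under the other scalings and was lost without naive replicate 1 (adjusted p = 0.054). Rps4x, which carried the lowest signal, had 672 and 688 in naive cells, 549, 458 and 527 in effector cells, 453, 504 and 544 in anergic cells and 641, 522 and 603 in Treg (chrX:102188769-102189514). It was highest in naive cells, with -0.45 ± 0.15 (SE, limma adjusted p = 0.0191) for anergic over naive and -0.41 ± 0.15 (SE, limma adjusted p = 0.0358) for effector over naive. The first was lost without either naive library or anergic replicate 1, and the second without either naive library or Teff replicate 2 and with total-read scaling. Rps6, the target of the S6 kinases, did not pass in any comparison (chr4:86856677-86858120): its means were 3449 ± 224 in naive (SD, n = 2) and 3076 ± 98.3, 3249 ± 265 and 3205 ± 473 in effector, anergic and Treg cells (SD, n = 3 each), and the 95% interval for anergic over effector was -0.14 to 0.29.

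The small-subunit gene Rps21 was called lower in Treg than in effector cells (-0.25 ± 0.10 (SE, limma adjusted p = 0.0489)), a call lost under the 3 other scalings and edgeR and without any of 8 single libraries (all but anergic replicates 1 and 2 and Treg replicate 3). Its libraries (chr2:180256633-180257883) read 3869 and 4003 in naive cells, 3720.3, 4292 and 3955 in effector cells, 3283, 3808 and 3761 in anergic cells and 3342, 3082 and 3638 in Treg, and the Treg values lay below all effector values.

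**Figure D3:**
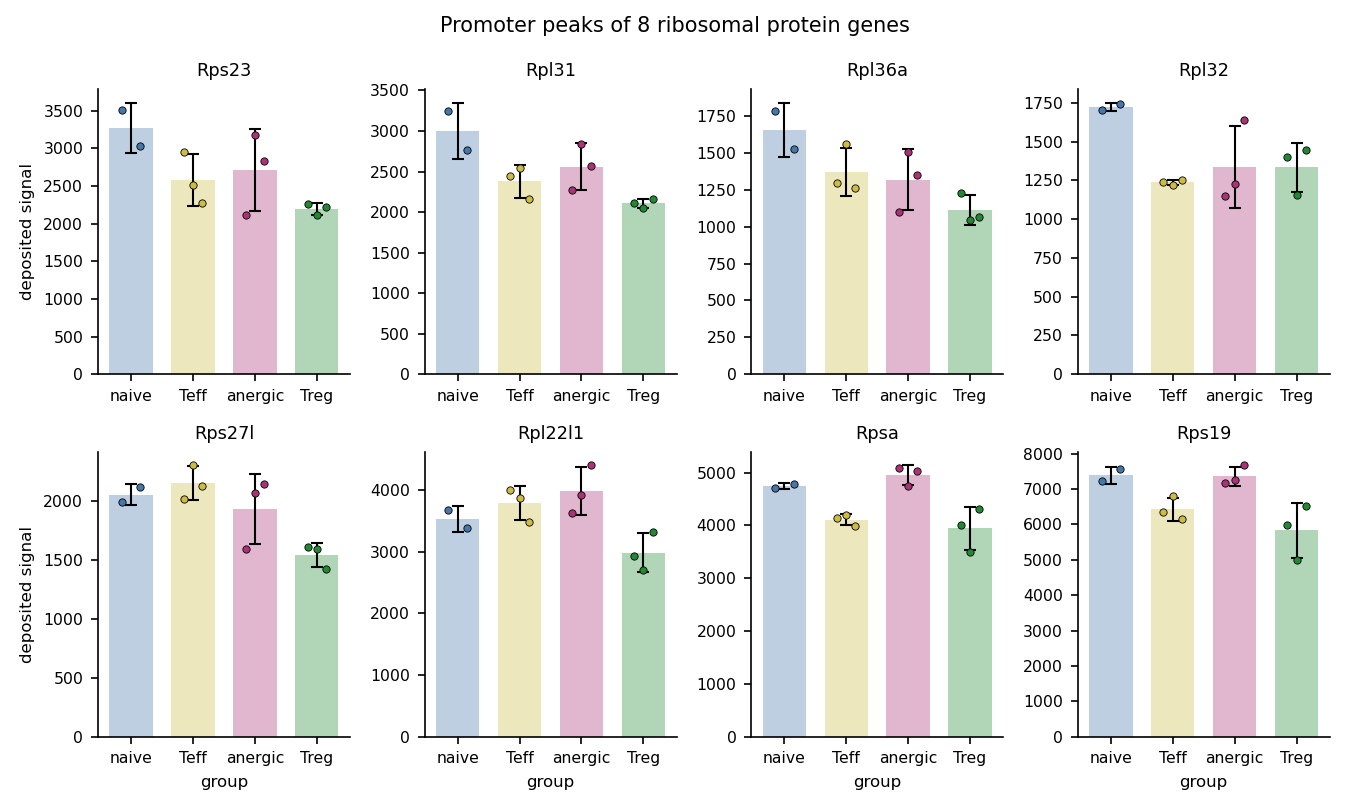
Signal at 8 ribosomal protein promoters in naive, effector, anergic and Treg cells; points are libraries, bars group means and error bars SD. Treg means are lowest at Rps23, Rpl31, Rpl36a and Rps27l, and anergic libraries exceed effector and Treg libraries at Rpsa.

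Among the large-subunit genes, Rpl31 (chr1:39367515-39368550) and the X-linked Rpl36a (chrX:134585415-134586052) had their lowest means in Treg. Rpl31 read 3249 and 2760.2 in naive cells, 2442, 2542 and 2155 in effector cells, 2268, 2844 and 2567 in anergic cells and 2115, 2049.9 and 2159 in Treg. Its Treg libraries lay below all anergic and naive libraries, and Treg over naive was -0.51 ± 0.12 (SE, limma adjusted p = 0.00147), effector over naive -0.33 ± 0.12 (SE, limma adjusted p = 0.0289). The Treg over naive call held under the other scalings and was lost without naive replicate 1 (adjusted p = 0.0569). Rpl36a read 1786 and 1523 in naive cells, 1297, 1559 and 1258 in effector cells, 1099, 1506 and 1350.1 in anergic cells and 1231, 1045 and 1062 in Treg, with Treg below all naive and effector values, and Treg over naive was -0.57 ± 0.15 (SE, limma adjusted p = 0.00282), again lost without naive replicate 1 (adjusted p = 0.0657). The promoters of Rpl30 and Rpl35, named after their values were seen, also fell in Treg against naive cells, by 0.49 and 0.48 on the log2 scale (limma adjusted p = 0.00201 and 0.00226), and both calls held under the other scalings and edgeR.

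Rpl32 (chr6:115808220-115809203) had the largest log2 fold change among the promoters called between effector and naive cells: 1703 and 1743 in naive cells, 1239.9, 1219 and 1253 in effector cells, 1149, 1226 and 1637 in anergic cells and 1402, 1154 and 1447 in Treg. Both naive libraries exceeded all others. The log2 fold change was -0.48 ± 0.14 (SE, limma adjusted p = 0.0106) for effector over naive, lost without either naive library, and -0.38 ± 0.14 (SE, limma adjusted p = 0.0299) for anergic over naive. Rpl10a (chr17:28328096-28329310), whose promoter carries the palindromic word shown above, read 3366 and 3256 in naive cells, 2763, 2535 and 2658 in effector cells, 2603, 2169 and 2743 in anergic cells and 2857, 2382 and 3067 in Treg. Both naive libraries were again above all others, with -0.41 ± 0.12 (SE, limma adjusted p = 0.00747) for anergic over naive, lost without naive replicate 1, and -0.32 ± 0.12 (SE, limma adjusted p = 0.0402) for effector over naive, lost with total-read scaling and without any 1 of the naive or effector libraries or Treg replicate 1. Rpl23a, whose protein lies at the exit of the peptide tunnel, went the other way (chr11:78182932-78183922): 1168 and 1229 in naive cells, 1333, 1239.7 and 1228 in effector cells, 1666, 1431 and 1665 in anergic cells and 1198, 1260.1 and 1622 in Treg. Anergic libraries exceeded all naive and effector libraries, with log2 fold changes of 0.40 ± 0.13 (SE, limma adjusted p = 0.0164) over naive and 0.32 ± 0.12 (SE, limma adjusted p = 0.0442) over effector cells. The first call was lost without naive replicate 1 or anergic replicate 3 and the second without any of 7 single libraries, naive and effector ones among them. Rpl13a (chr7:45128306-45129561), whose protein can leave the ribosome to act in translational silencing, read 6939 and 7182 in naive cells, 5960.4, 6123 and 6240.4 in effector cells, 7534, 6920.4 and 7275 in anergic cells and 5866, 5883 and 7047 in Treg, and anergic cells exceeded effector cells without overlap, with a log2 fold change of 0.25 ± 0.09 (SE, limma adjusted p = 0.0314).

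Rpl5 and Rpl11 encode the proteins that carry the 5S rRNA and bind MDM2 when ribosome assembly stalls. At Rpl11 (chr4:136052653-136053813) the libraries read 2399 and 2389 in naive cells, 2093, 2014 and 2070.1 in effector cells, 2067, 2045 and 2034 in anergic cells and 1877, 1807 and 1992 in Treg. The groups were tight, naive libraries were highest and Treg lowest, and Treg over naive was -0.34 ± 0.10 (SE, limma adjusted p = 0.0106), a call lost with total-read and promoter-median scaling and without either naive library. Rpl5 passed in no comparison, with means of 2632 ± 281, 2291 ± 96.0, 2339 ± 296 and 2493 ± 259 in naive, effector, anergic and Treg cells (SD). Neither did Rpl3, which forms part of the catalytic centre (3165 ± 49.7, 2822 ± 264, 3135 ± 461 and 3174 ± 314), Rpl38, known for translation of Hox mRNAs (2437 ± 16.2, 2185 ± 35.7, 2260.2 ± 324 and 2141 ± 273), or Rpl39 at the exit tunnel (2313 ± 152, 1902 ± 167, 2299.9 ± 242 and 1998 ± 201). Anergic over effector intervals were -0.21 to 0.25 for Rpl5, -0.09 to 0.38 for Rpl3, -0.20 to 0.28 for Rpl38 and 0.04 to 0.50 for Rpl39 on the log2 scale. Rpl27 (chr11:101441882-101443145) was among the 5 most open, with means of 5212 ± 215 in naive cells and 4333 ± 390.0 in Treg. Treg over naive was -0.27 ± 0.10 (SE, limma adjusted p = 0.0287), a call that did not hold under all of the other scalings and edgeR.

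The stalk, which recruits elongation factors to the large subunit, is built from Rplp0, Rplp1 and Rplp2. Rplp0, also among the 5 most open promoters (chr5:115559002-115560218), read 5725 and 5599 in naive cells, 4653, 5029.7 and 4984 in effector cells, 5526, 5379 and 5551 in anergic cells and 5105, 4542 and 5596 in Treg and passed in no comparison, although every anergic library exceeded every effector library (anergic over effector 0.17 ± 0.09 (SE, limma adjusted p = 0.16)). Rplp2 (chr7:141446982-141448066) passed in none, with means of 2261 ± 82.7, 2104 ± 171, 2196 ± 402 and 1932 ± 24.8. Rplp1 (chr9:61914069-61915271) read 3727 and 3997 in naive cells, 3399, 3119 and 3322 in effector cells, 3018, 2855 and 3118 in anergic cells and 3001, 2742 and 3414 in Treg. Both naive libraries were above all others, and the log2 fold change was -0.37 ± 0.11 (SE, limma adjusted p = 0.00687) for anergic over naive and -0.34 ± 0.11 (SE, limma adjusted p = 0.0123) for Treg over naive. The first call was lost without naive replicate 2, and the second also with total-read and promoter-median scaling.

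Paralogs of the large and the small subunit are described side by side. Rpl22, needed for development of αβ T cells, passed in no comparison (chr4:152325356-152326503; 3069 ± 128, 3027 ± 103, 3090.3 ± 329 and 2793 ± 302 in naive, effector, anergic and Treg cells), with an interval of -0.07 to 0.36 for anergic over Treg. Its paralog Rpl22l1 (chr3:28805062-28806144) read 3678 and 3381 in naive cells, 4006, 3869 and 3482 in effector cells, 3629, 3915 and 4401 in anergic cells and 2924, 2703 and 3326 in Treg. Anergic and effector libraries lay above all Treg libraries, with 0.42 ± 0.10 (SE, limma adjusted p = 0.0032) for anergic over Treg, which held in every alternative run, and -0.35 ± 0.10 (SE, limma adjusted p = 0.012) for Treg over effector, lost without Teff replicate 1 or Treg replicate 2. Rps27l, a p53 target (chr9:66945549-66946611), read 1986 and 2118 in naive cells, 2015, 2301 and 2125 in effector cells, 1593, 2065 and 2138 in anergic cells and 1610.4, 1592 and 1421 in Treg. All Treg libraries fell below all effector and naive libraries, with -0.48 ± 0.12 (SE, limma adjusted p = 0.00283) for Treg over effector, which held in every alternative, -0.41 ± 0.13 (SE, limma adjusted p = 0.0118) for Treg over naive, lost with total-read and promoter-median scaling and without naive replicate 2, and 0.32 ± 0.12 (SE, limma adjusted p = 0.0377) for anergic over Treg, lost under all 3 other scalings and edgeR and without anergic replicate 2 or 3 or any of the Treg libraries. Rps27 (chr3:90213186-90213977) read 2179.9 and 2307 in naive cells, 2030.4, 1985 and 1880.1 in effector cells, 1989.6, 2259 and 2727 in anergic cells and 2015, 1654 and 1959 in Treg. Anergic over Treg was 0.30 ± 0.12 (SE, limma adjusted p = 0.0465), with overlapping libraries, lost under the same 4 settings and without any of 9 single libraries (all but anergic replicate 1 and Treg replicate 1), and Treg over effector was -0.07 ± 0.12 (SE, limma adjusted p = 0.672). Rpl7l1, a relative of Rpl7 (chr17:46782323-46783421), read 1904 and 1793 in naive cells, 1677, 1319 and 1353 in effector cells, 1308, 1419 and 1656 in anergic cells and 1377, 1309 and 1372 in Treg. Naive libraries were highest. Against naive cells the log2 fold change was -0.35 ± 0.13 (SE, limma adjusted p = 0.0324) in anergic, -0.36 ± 0.13 (SE, limma adjusted p = 0.0336) in effector and -0.45 ± 0.13 (SE, limma adjusted p = 0.00785) in Treg cells. All 3 calls were lost without naive replicate 1, the last 2 with total-read scaling and the first 2 without naive replicate 2. The first was also lost without anergic replicate 1 or 2, and the second without Teff replicate 2 or 3. Whether the members of a pair differ from each other was not tested.

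The 8 promoter peaks that do not cover their start include small flanks beside Rpl11, Rpl13, Rpl35, Rpl36a, Rpl38 and Rps27l and 1 peak at Rpl37rt. The flank 0.4445 kb upstream of Rpl13 (chr8:123101728-123102083) had the largest promoter differences of the set: 85.3 and 99.1 in naive cells, 111, 109 and 163 in effector cells, 212, 274 and 262 in anergic cells and 196, 209 and 236 in Treg. Anergic and Treg libraries all exceeded naive and effector libraries. The log2 fold change was 1.42 ± 0.23 (SE, limma adjusted p = 2.45e-05) for anergic over naive, 1.20 ± 0.23 (SE, limma adjusted p = 0.000252) for Treg over naive, 0.98 ± 0.21 (SE, limma adjusted p = 0.000856) for anergic over effector and 0.76 ± 0.21 (SE, limma adjusted p = 0.00803) for Treg over effector, and all 4 held in every alternative run. The flank of Rps27l, 0.707 kb upstream (chr9:66945329-66945429), carried little signal, 66.6 and 54.2 in naive cells, 35.3, 47.1 and 20.001 in effector cells, 11.6, 30.6 and 30.9 in anergic cells and 48.4, 59.6 and 29.1 in Treg, and was called lower in anergic than in naive cells (-1.39 ± 0.51 (SE, limma adjusted p = 0.0285)). That call was lost with a replicate block and without either naive library or anergic replicate 1. With those at Rpl36a, Rpl35, Rpl11 and Rpl37rt it made up the 5 weakest promoter peaks (means of 41.2 to 111 over the groups), and the other 4 passed in no comparison. Close to the border of the promoter window lay, inside it, the flank of Rpl35, 714 bases from the start, and outside it the peaks of Rpl38 and Rps20, at 1222.5 and 1376 bases.

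A further 19 of the 90 genes had no promoter peak assigned. The starts of 10 of them lie inside a peak whose centre is nearer to another start, among them Rpl36al (peak assigned to Mgat2), Rpl41 (Zc3h10), Rpl7 (Rdh10), Rpl7a (Med22), Rps10 (Gm15420), Rps18 (Vps52), Rps2 (Snhg9), Rps27a (Clhc1) and Rps29 (Rn7s1). These shared peaks had means of 1075 to 9626 and 3 of 10 differed among groups by the F test, beside 51.7% of all promoter peaks. At Rps27a, which encodes ubiquitin fused to a small-subunit protein, the means were 3275, 2806, 3146 and 2116 in naive, effector, anergic and Treg cells (any difference, limma adjusted p = 0.000662), and at Rpl41 they were 9045, 9573, 11105 and 8783 (adjusted p = 0.00255). Signal there cannot be divided between the genes that share the peak. No peak held the start of Rpl10l, Rpl32l, Rpl39l, Rpl3l, Rps19bp1, Rps23rg1, Rps25, Rps27rt or Rps4l.

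The distal peaks varied far more than the promoters. Of 109, 73 (67.0%) differed among groups by the F test, beside 73.1% of all distal peaks. Anergic cells were higher than effector cells at 27 and lower at 15 (38.5%, beside 41.1% of all distal peaks), than Treg at 22 and 15 (33.9%, beside 37.4%) and than naive cells at 25 and 32 (52.3%, beside 59.8%). Treg were higher than effector cells at 21 and lower at 18 (35.8%, beside 37.2%), effector higher than naive cells at 16 and lower at 31 (43.1%, beside 47.6%), and Treg higher than naive cells at 14 and lower at 19 (30.3%, beside 48.2%). Over all distal peaks the shares called higher and lower were 19.9% and 21.2% for anergic over effector, 18.8% and 18.6% for anergic over Treg and 30.4% and 29.4% for anergic over naive. They were 18.6% in each direction for Treg over effector, 27.9% and 19.7% for effector over naive and 27.7% and 20.5% for Treg over naive. With total-read scaling the splits were 28 and 15 for Treg over effector and 18 and 22 for effector over naive. Without Treg replicate 2 they were 21 and 10 for anergic over Treg, 15 and 19 for Treg over effector and 10 and 18 for Treg over naive. Without naive replicate 1 there were 28 calls for effector over naive and 20 for Treg over naive. Most distal peaks were intergenic (83), 20 lay in introns, 3 in coding exons and 3 in other exons or UTRs, and 20 lay inside a gene other than the one they are assigned to. Assignment by the nearest start is therefore a label of position, and whether any of them acts on the ribosomal protein gene was not measured.

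**Figure D4:**
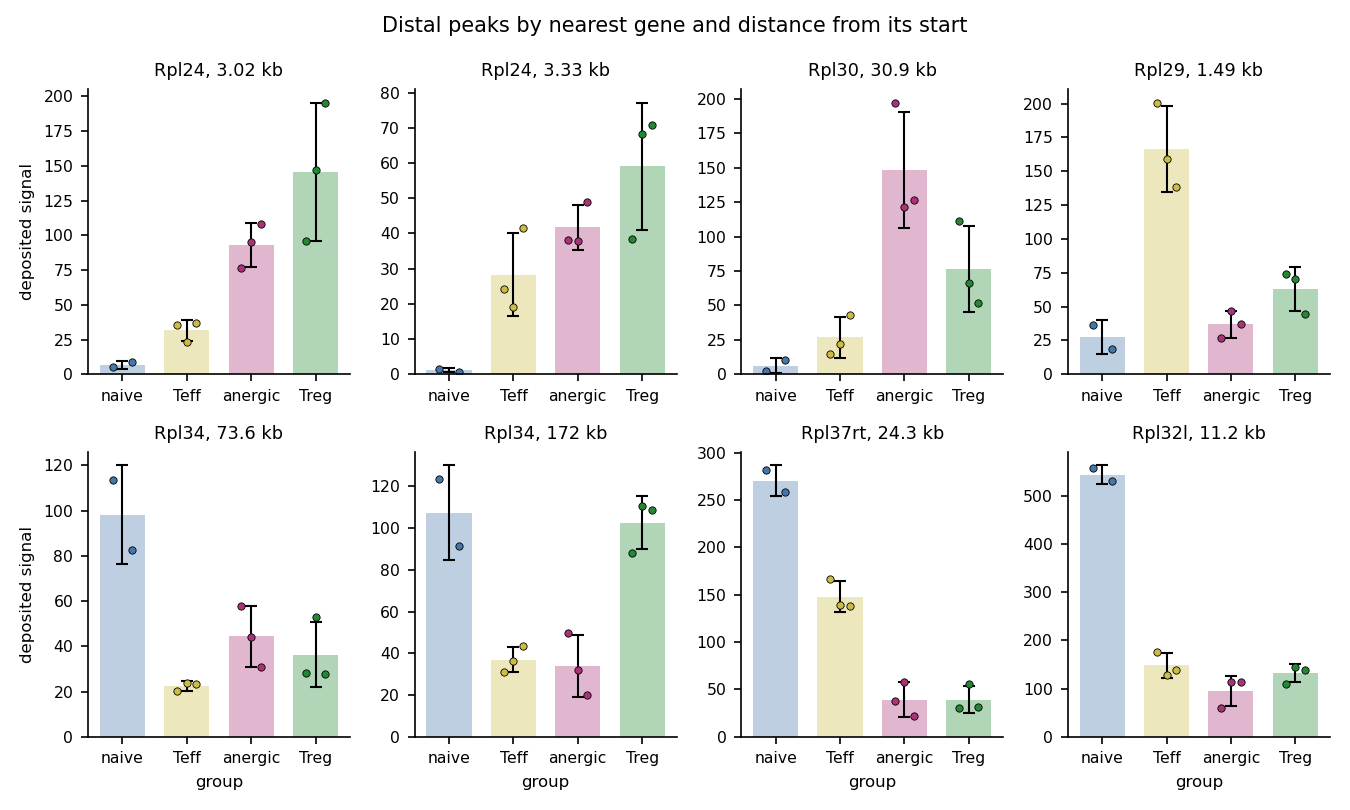
Signal at 8 distal peaks assigned to ribosomal protein genes, with their distance from the start; points are libraries, bars group means and error bars SD. Peaks of Rpl24 and Rpl30 are near 0 in naive cells, that of Rpl29 is highest in effector cells, and those of Rpl37rt and Rpl32l are highest in naive cells.

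The stalk gene Rplp1 held 33 of the 109 distal peaks. Of these, 32 were intergenic, in the 542 kb between its start (chr9, base 61914510) and that of Tle3 (base 61372366), which encodes a transcriptional corepressor, and 1 lay in an intron of Kif23 on the other side. Its far border is set by the nearest-start rule. Anergic cells were higher at 16 and lower at 5 of the 33 against effector cells, at 19 and 5 against Treg and at 17 and 8 against naive cells. The other 76 distal peaks gave 11 and 10, 3 and 10, and 8 and 24. The Rplp1 locus thus held 19 of the 22 distal peaks called higher in anergic cells than in Treg.

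Within this locus 14 peaks were called higher in anergic cells than in each of the other subsets. They fall in 166.678 kb (chr9:61664037-61830714), 84.4 to 250.3 kb from the Rplp1 start, among 28 peaks in that stretch. They were picked by these calls, so their values are a description only. Their summed signal was 1398 and 1265 in naive, 1419, 1375 and 1588 in effector, 6519, 5850 and 4985 in anergic and 1649, 1882 and 1376 in Treg libraries. Each anergic library thus stood above all others, whereas naive, effector and Treg libraries overlapped. Median log2 fold changes of the 14 were 2.22 over effector cells, 2.04 over Treg and 3.47 over naive cells. Naive cells had the lowest mean at 10 of the 14. The share of all distal peaks called higher in anergic cells than in each other subset is not given here. Whether 14 is more than elsewhere was therefore not tested. Among the 14, the peak at chr9:61702009-61702108 was called over effector cells at a limma adjusted p = 0.0491. That call did not hold under all of the other scalings and edgeR. The far end of the stretch is set by the peak at chr9:61664037-61664445, and the next of the 14 starts at base 61702009.

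The peak 135 kb from the start (chr9:61778605-61779634) read 30.9 and 24.8 in naive cells, 59.5, 102 and 100.006 in effector cells, 699.7, 665 and 641 in anergic cells and 122, 115 and 98.8 in Treg. The anergic libraries were tight and several times above the rest, with 2.97 ± 0.23 (SE, limma adjusted p = 4.53e-09) over effector cells, 2.57 ± 0.23 (SE, limma adjusted p = 5.28e-08) over Treg and 4.55 ± 0.26 (SE, limma adjusted p = 3.13e-12) over naive cells. The peak at 169 kb (chr9:61745058-61745485) read 25.2 and 13.2 in naive cells, 13.8, 27.3 and 48.3 in effector cells, 265, 235 and 237 in anergic cells and 27.0, 44.7 and 72.2 in Treg, and anergic over effector was 3.17 ± 0.42 (SE, limma adjusted p = 4.78e-06). The peak at 95.4 kb (chr9:61819019-61819283) read 7.31 and 11.6 in naive cells, 16.6, 21.5 and 8.33 in effector cells, 156, 129.7 and 151 in anergic cells and 18.0, 85.1 and 24.1 in Treg, so that 1 of the Treg libraries stood well above the other two, and anergic over effector was 3.24 ± 0.52 (SE, limma adjusted p = 3.88e-05). At 86.6 kb (chr9:61827662-61828104) the libraries read 15.4 and 2.32 in naive cells, 64.4, 42.1 and 50.003 in effector cells, 399.6, 345 and 314 in anergic cells and 110.4, 91.5 and 55.7 in Treg. Anergic over naive was 5.57 ± 0.47 (SE, limma adjusted p = 1.5e-09), a fitted value that rests on few naive reads and ranged from 4.35 to 6.73 over the alternatives. The peak at 194 kb (chr9:61719933-61720614) read 277 and 222 in naive cells, 179, 177 and 200.012 in effector cells, 766, 686 and 497 in anergic cells and 95.7, 140.5 and 72.2 in Treg and had its lowest values in Treg, with 2.68 ± 0.22 (SE, limma adjusted p = 1.61e-08) for anergic over Treg. Of these calls, that of anergic over naive at 135 kb held under the 3 other scalings and edgeR, and the others held in every alternative run. Some other peaks of the stretch did not have their highest mean in anergic cells. The peak at 248 kb (chr9:61666098-61666609) read 697 and 534 in naive cells, 1196, 799 and 685 in effector cells, 502, 411 and 295 in anergic cells and 393, 270.3 and 276 in Treg, with the highest mean in effector cells, and anergic over effector was -1.14 ± 0.21 (SE, limma adjusted p = 0.000189). At 243 kb (chr9:61671131-61671357) anergic cells were lowest, with 71.5 and 99.1 in naive cells, 188, 138 and 100.006 in effector cells, 36.5, 36.9 and 18.1 in anergic cells and 76.6, 66.0 and 58.2 in Treg and -2.20 ± 0.33 (SE, limma adjusted p = 1.85e-05) over effector cells. At 123 kb (chr9:61790981-61791255) naive and anergic cells shared a high level, 146 and 171 in naive cells, 49.8, 50.4 and 60.004 in effector cells, 169, 147 and 105 in anergic cells and 47.3, 31.9 and 34.2 in Treg, and anergic over naive was -0.20 ± 0.31 (SE, limma adjusted p = 0.627).

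**Figure D5:**
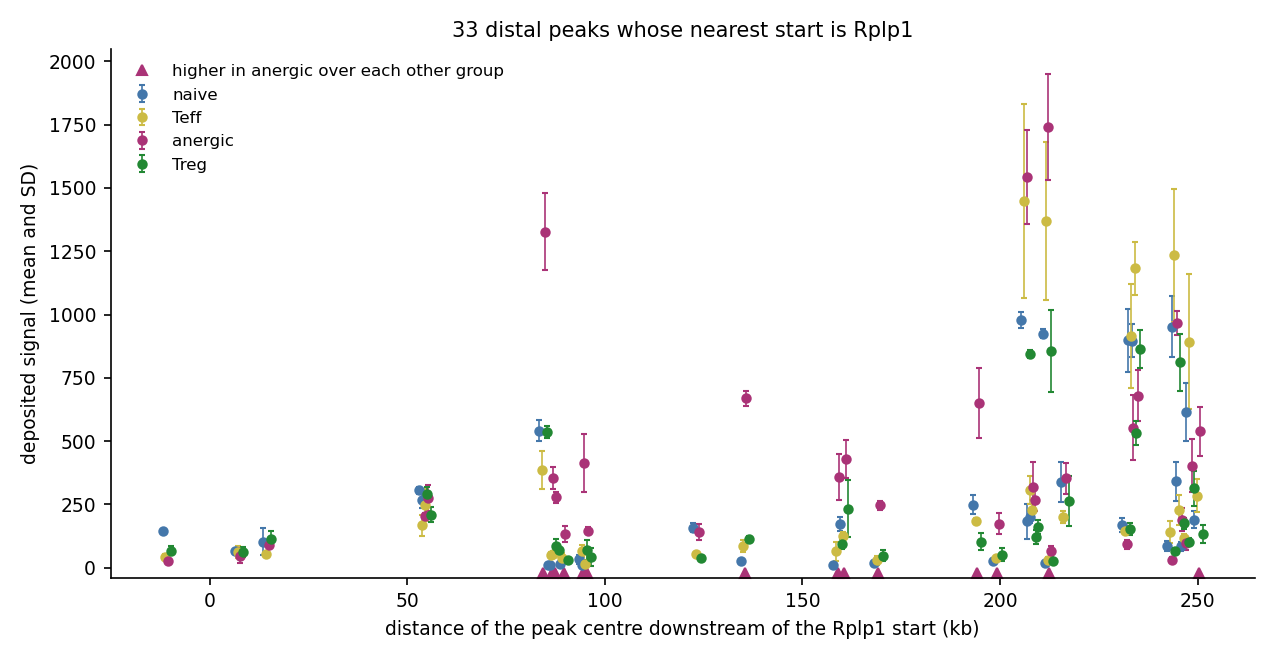
Mean signal of the 33 distal peaks assigned to Rplp1 against distance from its start in kb, in the 4 groups; points of the groups are set slightly apart on the x axis, and triangles mark the 14 peaks called higher in anergic cells than in each other subset. These 14 lie between 84.4 and 250.3 kb from the start.

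The central 200 bases of 3 of these Rplp1 peaks are shown because the description above turns on them, the peak at 135 kb first (chr9:61779020-61779219), then that at 169 kb (chr9:61745172-61745371) and that at 86.6 kb (chr9:61827784-61827983), all on the plus strand of GRCm38.p6. Capitals mark the AP-1 word TGANTCA on either strand, which only the last of them holds. Across the distal peaks of Rplp1 4 of 33 (12.1%) held the word in their central 200 bases, and 3 of the 16 higher in anergic than in effector cells did (18.8%). Over all distal peaks the share was 11.7%, over those higher in anergic than in effector cells 26.3%, and over the 109 distal peaks of ribosomal protein genes 5.50%.
Rplp1 at 135 kb: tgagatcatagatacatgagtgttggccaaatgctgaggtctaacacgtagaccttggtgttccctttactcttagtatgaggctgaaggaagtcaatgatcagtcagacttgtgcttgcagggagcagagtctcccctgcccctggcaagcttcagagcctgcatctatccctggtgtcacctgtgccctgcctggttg
Rplp1 at 169 kb: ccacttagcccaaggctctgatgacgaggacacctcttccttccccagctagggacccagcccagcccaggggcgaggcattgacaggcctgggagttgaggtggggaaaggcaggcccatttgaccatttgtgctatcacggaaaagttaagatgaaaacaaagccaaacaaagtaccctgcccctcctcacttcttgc
Rplp1 at 86.6 kb: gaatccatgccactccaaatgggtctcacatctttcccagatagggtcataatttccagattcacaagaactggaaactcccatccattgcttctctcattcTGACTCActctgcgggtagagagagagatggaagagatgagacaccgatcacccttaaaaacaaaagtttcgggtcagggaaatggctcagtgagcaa

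Rpl34 held 8 distal peaks on chromosome 3, in the 379.899 kb between its start (base 130730398) and that of Lef1 (base 131110297), a transcription factor of naive T cells. Of the 8, 6 were higher in Treg than in effector cells, 5 were lower in effector than in naive cells, 5 lower in anergic than in naive cells and 4 lower in anergic cells than in Treg. The peak at 175 kb (chr3:130905110-130905475) read 753 and 745 in naive cells, 259.6, 219.7 and 290.0 in effector cells, 280.2, 425 and 279 in anergic cells and 819, 677 and 657 in Treg. Naive and Treg libraries formed a high group and effector and anergic libraries a low group without overlap. Treg over effector was 1.48 ± 0.17 (SE, limma adjusted p = 9.28e-07), effector over naive -1.55 ± 0.19 (SE, limma adjusted p = 1.02e-06), anergic over Treg -1.15 ± 0.17 (SE, limma adjusted p = 2.55e-05) and anergic over naive -1.22 ± 0.19 (SE, limma adjusted p = 1.32e-05). The peak at 172 kb (chr3:130901813-130902007) had the same order at lower signal, 123 and 91.4 in naive cells, 31.2, 36.3 and 43.3 in effector cells, 49.7, 32.2 and 20.2 in anergic cells and 87.8, 111 and 109 in Treg, with -1.65 ± 0.34 (SE, limma adjusted p = 0.000816) for anergic over Treg. The peak at 73.6 kb (chr3:130803926-130804065) read 114 and 82.8 in naive cells, 20.1, 24.0 and 23.3 in effector cells, 58.0, 44.3 and 30.9 in anergic cells and 28.2, 53.2 and 27.9 in Treg with both naive libraries above all others. Effector over naive was -2.07 ± 0.44 (SE, limma adjusted p = 0.000647) and Treg over naive -1.46 ± 0.44 (SE, limma adjusted p = 0.00964). The peak at 175 kb lies 205 kb from the Lef1 start.

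Rpl24, a large-subunit gene on chromosome 16, had 5 distal peaks, and the pair about 3 kb upstream was almost closed in naive cells. The peak at 3.33 kb (chr16:55962887-55963004) read 1.62 and 0.774 in naive cells, 24.2, 19.0 and 41.7 in effector cells, 38.1, 38.0 and 49.0 in anergic cells and 38.3, 68.1 and 70.9 in Treg. The naive values stand for 2 and 1 reads, so no fold change against naive cells is given, and the other groups overlapped. The peak at 3.02 kb (chr16:55963192-55963326) read 4.87 and 8.52 in naive cells, 35.3, 23.1 and 36.7 in effector cells, 76.3, 94.9 and 108 in anergic cells and 95.7, 147 and 195 in Treg. Each step from naive to effector to anergic cells was free of overlap, Treg over effector was 2.14 ± 0.37 (SE, limma adjusted p = 0.000112) and anergic over effector 1.54 ± 0.37 (SE, limma adjusted p = 0.00216). Anergic cells and Treg overlapped (-0.60 ± 0.37 (SE, limma adjusted p = 0.216)).

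At Rpl30 the only distal peak lay 30.9 kb away in an intron of Matn2, which encodes a matrix protein (chr15:34412184-34412426). It read 2.44 and 10.1 in naive cells, 14.5, 22.3 and 43.3 in effector cells, 197, 122 and 126 in anergic cells and 111, 66.0 and 51.9 in Treg. Anergic libraries were above all Treg libraries and these above all effector libraries, yet anergic over Treg did not pass (0.99 ± 0.47 (SE, limma adjusted p = 0.112)). Anergic over effector was 2.53 ± 0.47 (SE, limma adjusted p = 0.00022) and Treg over effector 1.54 ± 0.47 (SE, limma adjusted p = 0.0154), the latter lost without Teff replicate 1, Teff replicate 2 or Treg replicate 1. Rpl29 had a distal peak in its own intron, 1.49 kb from the start (chr9:106430789-106431018): 36.6 and 18.6 in naive cells, 201, 159 and 138 in effector cells, 26.5, 46.9 and 36.9 in anergic cells and 74.3, 70.2 and 44.3 in Treg. Effector libraries stood above all others, with -2.16 ± 0.34 (SE, limma adjusted p = 3.64e-05) for anergic over effector, -1.40 ± 0.34 (SE, limma adjusted p = 0.00323) for Treg over effector and 2.61 ± 0.38 (SE, limma adjusted p = 1.11e-05) for effector over naive.

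Peaks of 2 genes matched by name only were highest in naive cells. A peak assigned to Rpl37rt lies 24.3 kb away in an intron of Sppl3, an intramembrane protease gene (chr5:115083490-115083811), and read 282 and 259 in naive cells, 167, 139 and 138 in effector cells, 38.1, 58.0 and 21.5 in anergic cells and 30.4, 55.3 and 31.7 in Treg. Naive libraries exceeded effector libraries, and these exceeded anergic and Treg libraries, which overlapped. Anergic over naive was -2.86 ± 0.37 (SE, limma adjusted p = 9.09e-07), anergic over effector -1.99 ± 0.33 (SE, limma adjusted p = 5.58e-05) and Treg over effector -1.94 ± 0.33 (SE, limma adjusted p = 9.84e-05). Of the pair assigned to Rpl32l in an intron of Map7, a microtubule-associated protein gene, the stronger, 11.2 kb away (chr10:20219335-20219848), read 557 and 529.6 in naive cells, 177, 129 and 138 in effector cells, 59.7, 113 and 114 in anergic cells and 110.4, 145 and 139 in Treg. Against naive cells the log2 fold change was -1.88 ± 0.27 (SE, limma adjusted p = 7.25e-06) in effector, -2.55 ± 0.27 (SE, limma adjusted p = 4.9e-08) in anergic and -2.05 ± 0.27 (SE, limma adjusted p = 2.13e-06) in Treg cells. The weaker, at 10.6 kb (chr10:20219014-20219151), read 106 and 94.5 in naive cells, 18.0, 22.3 and 16.7 in effector cells, 4.97, 19.5 and 10.1 in anergic cells and 33.8, 34.1 and 27.9 in Treg, also highest in naive cells. Anergic over Treg was -1.57 ± 0.50 (SE, limma adjusted p = 0.0186), lost with only those 2 groups fitted and without anergic replicate 1, Treg replicate 1 or Treg replicate 2.

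The genes in this paragraph were named after their values were seen. By the F test the 7 distal peaks of Rpl11 all differed among groups, 5 of them lower in effector than in naive cells. Of the 5 at Rplp0, 2 differed, and of the 4 at Rpl5, 3 were lower in effector, in anergic and in Treg cells than in naive cells. Both distal peaks of Rps26, 13.3 and 13.7 kb from the start, were higher in anergic and in Treg cells than in effector cells. The single distal peaks of Rps27 and Rps28 were lower in Treg than in each other subset, by 1.34 and 0.998 on the log2 scale against effector cells. At 13 of the 37 genes with distal peaks, none of these passed the F test, although pairwise tests called those of Rps16 and Rps4x against naive cells.

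Other genes of the translation machinery were counted in the same way at their promoters. Of 66 promoter peaks of mitochondrial ribosomal proteins, 27 (40.9%) differed among groups by the F test, with 16 higher and 0 lower in anergic cells than in Treg and 1 higher and 19 lower in Treg than in naive cells. Of 49 of translation initiation factors 22 (44.9%) differed, with 2 higher and 17 lower in Treg than in naive cells. For ribosome biogenesis factors it was 18 of 43 (41.9%), with 0 higher and 16 lower in Treg than in naive cells. RNA polymerase I and III genes, which make rRNA and tRNA, gave 9 of 31 (29.0%), with 0 and 8, and cytosolic tRNA synthetases 9 of 16 (56.3%), with 0 and 7. Elongation and termination factors gave 3 of 8, with 0 and 4 for Treg over naive, and the S6 kinases left out of the set 5 of 10, with 2 and 4. Of 3 ribosomal components with other symbols, only Rack1 had a promoter peak, which did not pass the F test. In pairwise tests its log2 fold change over naive cells was -0.38 in Treg (limma adjusted p = 0.0204) and -0.31 in anergic cells (limma adjusted p = 0.0481). Of all promoter peaks 51.7% passed the F test, and 11.1% were called higher and 28.3% lower in Treg than in naive cells. For anergic over Treg these shares were 20.6% and 6.9%. Their Treg counts rest on the deposited scaling, as those of the ribosomal protein genes do.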

How the data were processed

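ATAC-seq signal was read in 11 libraries (2 naive, 3 effector, 3 anergic, 3 Treg). Per the series' design text and the submitters' processing notes, the authors trimmed reads with Trimmomatic 0.38.1, aligned them with Bowtie2 2.3.3.1 to mm10, handled alignments with SAMtools 1.13, called peaks per sample with Genrich 0.5 in ATAC mode (duplicates, mitochondrial and blacklisted reads removed, cut sites adjusted) and built 38509 consensus peaks with DiffBind 2.10.0. HOMER 4.11.1 and deepTools 3.5.1.0.1 are also named. The deposited signal is normalized, and its scaling method is not given in the sources used here. Dividing each library by its smallest value gave whole reads at 100% of values within 0.01, and a value of 1 read may stand for 0.

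Peaks were assigned to the nearest RefSeq start (GRCm38.p6, NM and NR transcripts). Values were fitted as log2(signal + 1) with limma 3.58.1 (R 4.3.3, trend, group only, all 11 libraries) over the 38493 peaks left after a filter on low reads removed 16. A pseudocount of 1 understates fold changes of weak peaks. P-values were adjusted by Benjamini-Hochberg over all of them (threshold 0.05). The alternatives were edgeR 4.0.16 quasi-likelihood on recovered reads, 3 other scalings, pseudocount 10, other filters, only the groups compared, a replicate block, other promoter windows and leaving out each library. The fit was tested on simulated data. Named peaks were, per comparison, up to 3 promoter and 3 distal member peaks per direction with the largest change past the threshold, the 5 strongest and 5 weakest promoter peaks, and a panel: Rpsa, Rplp0, Rplp1, Rplp2, Rps6, Rps19, Rpl5, Rpl11, Rpl3, Rpl3l, Rpl7l1, Rpl10a, Rpl22, Rpl22l1, Rps27, Rps27l, Rpl38, Rpl39, Rpl39l and Rps19bp1. Members and lists were chosen with earlier results of these data known. Some peaks and marker genes that these rules name are not reported here.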

Additional observations from a re-analysis of the deposited data

How the results depend on the processing

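None of the 153 named values changed sign in an alternative where the reported or the alternative value passed the threshold. Changes of sign between values that did not pass were not counted. Of 173 alternatives for the 14 counts of called ribosomal peaks that left no library out, 155 stayed within 1.5 times. Those beyond it were, for promoter peaks, 8 for anergic over effector with a window of 2000 bases (5 as reported), and for anergic over Treg 4 with TMM factors, 5 with edgeR and 5 with only those groups fitted (10 as reported). For Treg over effector they were 8 with total reads, 10 with the promoter median and 8 with the wider window (5 as reported). For effector over naive they were 3 with total reads, 10 with the promoter median, 10 with edgeR and 20 with only those groups (6 as reported), and for Treg over naive 12 with the promoter median (21 as reported). Without the Rplp1 peaks, an alternative chosen after seeing the data, distal counts were 21, 13, 32, 25 and 19 for anergic over effector, anergic over Treg, anergic over naive, Treg over effector and Treg over naive, and 43 for any difference.

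Leaving out single libraries gave promoter counts of 1 to 7 (anergic over effector), 4 to 14 (anergic over Treg), 2 to 13 (anergic over naive), 3 to 6 (Treg over effector), 0 to 14 (effector over naive), 8 to 27 (Treg over naive) and 7 to 26 (any), and distal counts of 35 to 43, 31 to 38, 38 to 58, 28 to 42, 28 to 48, 20 to 34 and 65 to 71 in the same order. Deviations from group means correlated at r of -0.11 to 0.16 between same-numbered replicates (15 pairs, 4 over 0.1). Between differently numbered ones r was -0.22 to 0.19 (30 pairs, 4 over 0.1). In groups of 2 or 3 libraries the deviations cancel within a group, so these values cannot decide whether the numbers pair samples. With a replicate block the promoter counts were 5, 10, 12, 5, 9, 22 and 25 and the distal counts 46, 37, 56, 40, 49, 32 and 74, and of 153 named values 150 stayed on their side of the threshold. Peaks at 1 read, which may stand for 0, numbered 293 and 368 in the naive libraries and 17 to 31 in the others, which limits the naive values of weak peaks.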
